A study of Mus musculus with 10 samples.

Results

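Genes of cholesterol synthesis and cholesterol uptake were compared between 2 populations of small intestinal epithelial cells that differ in the level of GUCY2C, the intestinal receptor for guanylin and uroguanylin. The 8 genes were Hmgcs1, Idi1, Fdps, Fdft1, Sqle, Lss and Dhcr7, which encode enzymes of the pathway, and Npc1l1, which encodes the apical carrier that takes up cholesterol from the gut lumen. They were chosen by gene symbol and function from the 54532 genes in the deposited table, and all 8 passed the filter on low counts that left 15703 genes for testing. The cells came from 5 litter-matched Gucy2c-GFP mice, 10 weeks old and of the outbred CD1/ICR stock, in which the Gucy2c promoter drives GFP. All cells carried the reporter, and the groups were separated by GFP fluorescence: the GUCY2Chi libraries hold cells with high GFP and the GUCY2Cmed libraries cells with medium GFP, which stand for the bulk epithelium. From each mouse 20000 cells per group gave 1 library each, numbered 2, 7, 12, 14 and 15 in both groups, and these numbers were taken as those of the mice.

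Cells make cholesterol from acetyl-CoA. Acetyl-CoA units are joined and reduced to mevalonate, which is turned into isoprene units and joined to farnesyl diphosphate and then squalene; squalene is oxidized, closed into lanosterol and trimmed to cholesterol. Transcription of these genes rises when sterols are scarce: the membrane sensor SCAP then escorts SREBP-2, encoded by Srebf2, to the Golgi, where it is cut so that its active part can enter the nucleus and bind sterol regulatory elements. INSIG proteins hold SCAP back in the endoplasmic reticulum when sterols are plentiful. In the small intestine, absorptive enterocytes also take cholesterol from the lumen through NPC1L1, esterify it with SOAT2 for lipoprotein particles and return sterols to the lumen through ABCG5 and ABCG8.

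Depth, as reads assigned to genes, ran from 10903958 to 15307932 per library. Gucy2c, the gene that defined the sort, was at 549 to 1757 cpm (TMM-normalized cpm, the counts of a gene scaled to the size of its library) in GUCY2Chi libraries and at 323 to 483 cpm in GUCY2Cmed libraries. All 14 enteroendocrine markers were higher in GUCY2Chi cells, among them Chgb, a granule protein, at a mean of 24648 against 63.7 cpm. Chgb ran from 2467 cpm in GUCY2Chi 15 to 41850 cpm in GUCY2Chi 7. Summed over the 14 markers, GUCY2Chi 15 had 39887 cpm and the other GUCY2Chi libraries 98439 to 158790 cpm. Of 14 enterocyte markers edgeR called 2 lower, Anpep and Vil1, limma-voom 10 and DESeq2 12, and all 14, with Fabp2 the most abundant, had negative differences. Summed over these 14 genes, the level in GUCY2Chi cells was 7.05%, 7.23% and 7.20% of that in GUCY2Cmed cells of the same mouse in mice 2, 7 and 14. It was 42.7% and 40.3% in mice 12 and 15, so the GUCY2Chi libraries of these mice stood apart for this list. Other libraries stood apart for other cell types. In mice 2, 7, 12, 14 and 15 summed Paneth cell markers were at 695%, 55.5%, 102%, 276% and 51.8%. Summed goblet cell markers were at 371%, 116%, 164%, 50.6% and 71.5%. Of 14 proliferation markers edgeR called 11 lower in GUCY2Chi cells, limma-voom 12 and DESeq2 12. Over all genes tested edgeR called 13.9% higher and 8.79% lower at the threshold used below. Of the same 15703 genes limma-voom called 2129 higher and 1797 lower, and DESeq2 called 2960 higher and 2235 lower. Summed forebrain neuron markers, which neither group should hold, ranged from 12.9 to 1195 cpm over the libraries.

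Of the 8 genes, Sqle and Hmgcs1 were higher in GUCY2Chi cells, Npc1l1 was lower, and Idi1, Fdps, Fdft1, Lss and Dhcr7 did not pass the test (edgeR's quasi-likelihood test with Benjamini-Hochberg adjustment over 15703 genes, threshold 0.01). Over all genes tested, 13.9% were higher and 8.79% lower at this threshold, and against this background 2 higher and 1 lower among 8 is no result about the genes as a group. The median log2 difference of the 8 genes, GUCY2Chi over GUCY2Cmed, was -0.015, against 0.094 over all genes tested. These are bulk libraries, in which fewer cells of a type and less RNA per cell cannot be told apart.

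**Figure D1:**
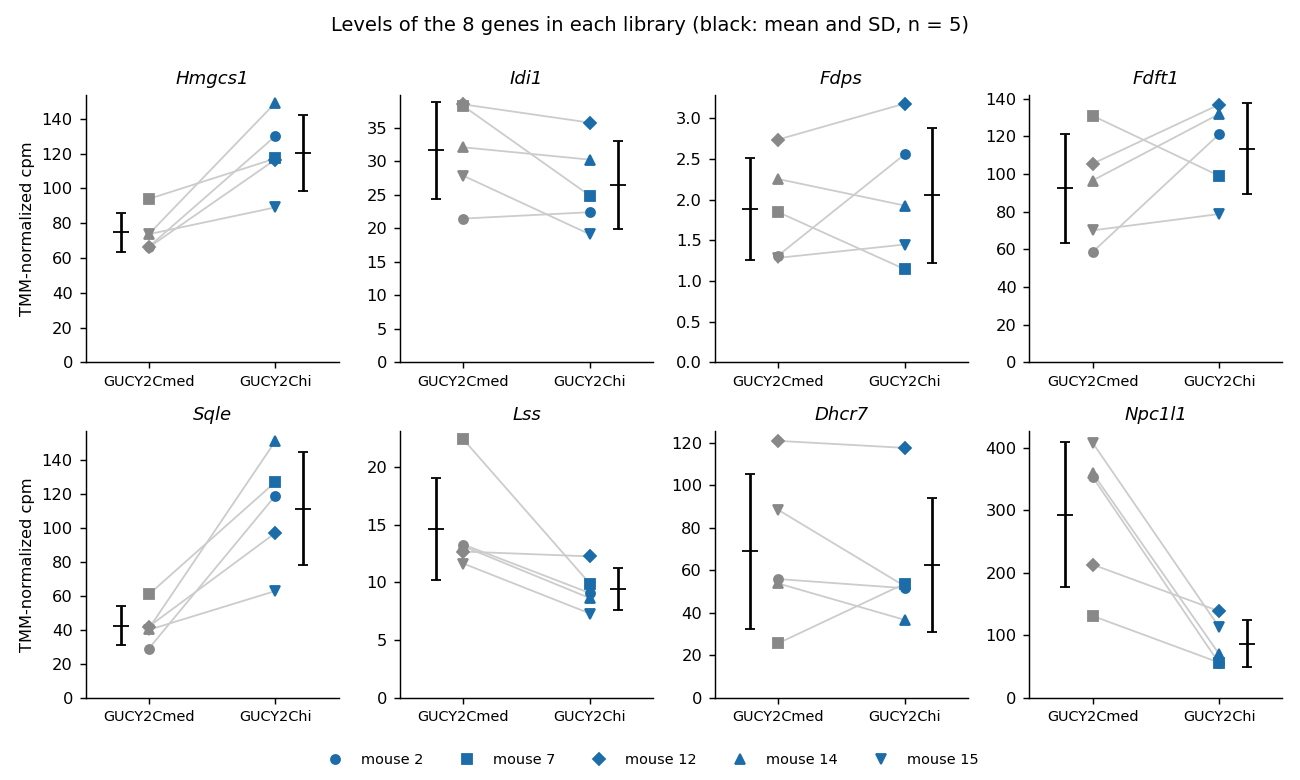
TMM-normalized cpm of the 8 genes (vertical axes, linear from 0) in GUCY2Cmed (grey) and GUCY2Chi (blue) libraries, with a line for each of the 5 mice and the group mean and SD in black. Sqle rises in every mouse with no overlap between groups, Npc1l1 is lower in every mouse, and Dhcr7 is high in both libraries of mouse 12.

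Sqle encodes squalene epoxidase, which adds oxygen to squalene and is regarded as a rate-limiting step of the pathway. The gene (ENSMUSG00000022351) lies at chr15:59315077-59331192 on the plus strand of GRCm38. It stood at 119, 127, 97.2, 151 and 63.0 cpm in the GUCY2Chi libraries of mice 2, 7, 12, 14 and 15, and 29.0, 60.9, 42.0, 40.9 and 40.1 cpm in the GUCY2Cmed libraries. Every GUCY2Chi library was above every GUCY2Cmed library, although the lowest, that of mouse 15 at 63.0 cpm, was close to the highest GUCY2Cmed library, that of mouse 7 at 60.9 cpm. The means were 112 ± 33.3 and 42.6 ± 11.5 cpm (SD, n = 5), a log2 difference of 1.39 ± 0.25 (SE), or 2.62-fold, with an edgeR adjusted p of 0.00177. Sqle passed the threshold whichever library was left out, in all 10 such fits, with differences from 1.26 to 1.56, and in all 11 other fits. Without the GUCY2Chi libraries of mice 12 and 15 the difference was 1.66.

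Hmgcs1 encodes the cytosolic HMG-CoA synthase, which joins acetyl-CoA units early in the pathway. The gene (ENSMUSG00000093930) lies at chr13:119690379-119708260 on the plus strand. It was at 130, 117, 117, 149 and 89.1 cpm in the GUCY2Chi libraries of mice 2, 7, 12, 14 and 15 and at 66.5, 93.9, 66.1, 73.7 and 73.7 cpm in the GUCY2Cmed libraries. Hmgcs1 was higher in GUCY2Chi cells of all 5 mice, but the groups overlapped, since the lowest GUCY2Chi library, of mouse 15, was below the highest GUCY2Cmed library, of mouse 7. The means were 120 ± 21.9 and 74.8 ± 11.3 cpm (SD, n = 5), a log2 difference of 0.69 ± 0.17 (SE), or 1.61-fold, with an edgeR adjusted p of 0.00845. This call was close to the threshold: with the mouse number as replicate block the difference was 0.68 and the adjusted p 0.0236 in edgeR and 0.0189 in limma-voom. It passed in 2 of the 10 fits with 1 library left out, those without GUCY2Chi 15 or GUCY2Cmed 7, and in the others, without GUCY2Chi 2, 7, 12 or 14 or GUCY2Cmed 2, 12, 14 or 15, the adjusted p was up to 0.0225 with differences of 0.60 to 0.71.

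In the 250 bases before its RefSeq start, Hmgcs1 holds TCACCCCAC, a match to the sterol regulatory element TCACNCCAC, beginning 137 bases before the start. The RefSeq promoter table (GRCm38.p6, 250 bases before to 50 after each start) held promoters of 5 of the 8 genes: Hmgcs1, Idi1, Lss, Npc1l1 and, with 3 starts, Dhcr7. TCACNCCAC was found on either strand in 1.24% of 32544 promoters of this length, and among the 5 genes in Hmgcs1 alone; the looser TCANNCCAC, which contains it, was found in 4.19% of promoters and again in Hmgcs1 alone. CCAAT, which NF-Y binds and which often neighbours sterol regulatory elements, was in a promoter of 5 of the 5 genes. Counted by promoter, it was in 5 of their 7 and in 37.4% of all promoters. GGGCGG, bound by Sp1, was in 4 of the 5 genes, all but Npc1l1, in 5 of the 7 promoters and in 35.9% of all promoters. CACGTG was in 1 of the 7 promoters, of Dhcr7, and in 7.17% of all promoters. Below are the 250 bases before the start of Hmgcs1 (chr13:119690101-119690350, plus strand), called higher, Idi1 (chr13:8885356-8885605, plus strand), not called, and Npc1l1 (chr11:6230246-6230495, minus strand), called lower. They are written 5′ to 3′ on the strand of the gene, with matches to TCANNCCAC, CCAAT and GGGCGG on either strand in capitals.
Hmgcs1: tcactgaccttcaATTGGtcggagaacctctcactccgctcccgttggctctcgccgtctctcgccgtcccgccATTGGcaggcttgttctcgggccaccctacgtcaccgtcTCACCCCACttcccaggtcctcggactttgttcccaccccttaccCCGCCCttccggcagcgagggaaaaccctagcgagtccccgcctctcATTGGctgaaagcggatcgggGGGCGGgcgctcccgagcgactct
Idi1: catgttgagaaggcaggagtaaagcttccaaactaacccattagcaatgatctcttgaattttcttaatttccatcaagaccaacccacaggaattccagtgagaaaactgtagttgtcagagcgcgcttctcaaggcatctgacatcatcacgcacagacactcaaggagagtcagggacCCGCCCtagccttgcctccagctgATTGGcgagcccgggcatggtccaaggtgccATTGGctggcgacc
Npc1l1: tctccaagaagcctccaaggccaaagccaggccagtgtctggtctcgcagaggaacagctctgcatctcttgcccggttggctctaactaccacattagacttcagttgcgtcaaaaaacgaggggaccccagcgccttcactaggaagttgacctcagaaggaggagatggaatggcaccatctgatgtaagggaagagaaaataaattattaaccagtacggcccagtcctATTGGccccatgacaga
The Hmgcs1 stretch shows CCAAT in its reverse form, ATTGG, on both sides of the sterol element, whereas Idi1 has 2 such matches near its start with 1 GGGCGG match before them, and Npc1l1 has a single CCAAT match, 17 bases before the start. These matches describe the sequence only.

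Idi1, Fdft1 and Fdps, whose enzymes act between mevalonate and squalene, showed no difference that passed the test. Idi1 encodes the isomerase that turns isopentenyl into dimethylallyl diphosphate (ENSMUSG00000058258, chr13:8885501-8892451, plus strand). It was at 22.4, 24.8, 35.7, 30.2 and 19.1 cpm in GUCY2Chi cells of mice 2, 7, 12, 14 and 15 and at 21.4, 38.2, 38.5, 32.1 and 27.8 cpm in GUCY2Cmed cells. The groups overlapped widely, and the difference was -0.26 ± 0.22 (SE) on the log2 scale, with an adjusted p of 0.396 in edgeR and an interval of 2 SE from -0.70 to 0.18. With library sizes in place of TMM factors the value was 0.0051.

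Fdft1 encodes squalene synthase, the first enzyme committed to sterols (ENSMUSG00000021273, chr14:63145150-63179578, minus strand). Its GUCY2Chi libraries were at 121, 99.1, 137, 132 and 78.8 cpm and its GUCY2Cmed libraries at 58.6, 131, 106, 96.6 and 70.1 cpm, in the order of mice 2, 7, 12, 14 and 15. GUCY2Chi cells had more in 4 of 5 mice and less in mouse 7, and the groups overlapped. The log2 difference was 0.30 ± 0.24 (SE), with an edgeR adjusted p of 0.361 and an interval of 2 SE from -0.18 to 0.77. That interval includes the difference found for Hmgcs1, so a change of that size is not excluded for Fdft1. The annotated gene shares 774 bases with Ctsb, a cathepsin gene on the opposite strand with 130136 counts over the 10 libraries against 14044 for Fdft1. The setting for strand in counting is not given in the sources used here, and reads there could not be told apart without it.

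Fdps encodes farnesyl diphosphate synthase, which stands where sterol and other isoprenoid products part (ENSMUSG00000059743, chr3:89093588-89101959, minus strand). It was counted at 14 to 42 reads per library, or 1.15 to 3.18 cpm in GUCY2Chi and 1.28 to 2.74 cpm in GUCY2Cmed cells. The groups overlapped, and the log2 difference was 0.11 ± 0.38 (SE), with an edgeR adjusted p of 0.860. Its interval of 2 SE, from -0.65 to 0.87, includes the difference found for Hmgcs1, so a change of that size is not excluded. Gm43738, annotated as protein-coding on the same strand, covers 7512 bases of the gene and had 0 counts in every library. How reads that fall on both genes were counted is not given in the sources used here, so the level of Fdps is uncertain.

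After squalene epoxidase the pathway continues with Lss, which encodes lanosterol synthase, the enzyme that closes the sterol rings (ENSMUSG00000033105, chr10:76531588-76557138, plus strand). Its levels in mice 2, 7, 12, 14 and 15 were 9.08, 9.89, 12.3, 8.63 and 7.31 cpm in GUCY2Chi cells and 13.3, 22.4, 12.7, 13.1 and 11.6 cpm in GUCY2Cmed cells. Lss was lower in GUCY2Chi cells of all 5 mice, but the groups overlapped in the library of mouse 12, and GUCY2Cmed 7 was far above the rest. The difference was -0.63 ± 0.23 (SE) on the log2 scale with an edgeR adjusted p of 0.0464, which did not pass. In no fit that left out a library did it pass, and without GUCY2Cmed 7 it was -0.43.

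Sqle and Lss act in turn, and their differences had opposite signs, of which only that of Sqle passed the test. Within a library the ratio of their counts does not depend on scaling: there were 13.1, 12.9, 7.93, 17.5 and 8.62 Sqle counts per Lss count in GUCY2Chi cells of mice 2, 7, 12, 14 and 15 and 2.18, 2.72, 3.31, 3.11 and 3.44 in GUCY2Cmed cells. The groups did not overlap, with the lowest ratios among GUCY2Chi cells in mice 12 and 15. Against Fdft1, the enzyme before it, Sqle stood at 0.710 to 1.28 counts per count in GUCY2Chi cells and 0.398 to 0.571 in GUCY2Cmed cells, again without overlap. Hmgcs1 had 3.26 to 5.81 counts per Idi1 count in GUCY2Chi and 1.72 to 3.10 in GUCY2Cmed cells. These ratios follow from the differences above and are given as a description.

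Dhcr7 encodes 7-dehydrocholesterol reductase, the enzyme that turns 7-dehydrocholesterol, also the precursor of vitamin D, into cholesterol (ENSMUSG00000058454, chr7:143823145-143848410, plus strand). It varied more between mice than between groups: 51.6, 53.7, 118, 36.7 and 52.6 cpm in GUCY2Chi cells and 55.9, 25.6, 121, 53.8 and 88.5 cpm in GUCY2Cmed cells of mice 2, 7, 12, 14 and 15. Both libraries of mouse 12 were the highest of their group, and the coefficient of variation was 50.7% and 53.1%, against 18.2% and 15.1% for Hmgcs1. The log2 difference was -0.14 ± 0.40 (SE), with an edgeR adjusted p of 0.830 and an interval of 2 SE from -0.95 to 0.66. Its sign turned in 4 of the 21 alternatives, among them when mouse 12's GUCY2Cmed library was left out, to 0.22, and with library sizes in place of TMM factors, to 0.13.

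Npc1l1 encodes the sterol carrier of the brush border that ezetimibe blocks (ENSMUSG00000020447, chr11:6211013-6230143, minus strand). It was at 55.4, 56.4, 139, 70.1 and 113 cpm in the GUCY2Chi libraries of mice 2, 7, 12, 14 and 15 and at 354, 131, 213, 360 and 409 cpm in the GUCY2Cmed libraries. GUCY2Chi cells had less in all 5 mice, and the groups overlapped only in that GUCY2Chi 12 was above GUCY2Cmed 7. The means were 86.7 ± 37.3 and 293 ± 116 cpm (SD, n = 5), a log2 difference of -1.76 ± 0.36 (SE), or 3.38-fold lower, with an edgeR adjusted p of 0.00342. The call ended without GUCY2Chi 2, 7 or 14 or GUCY2Cmed 2 or 15, each left out alone, with adjusted p up to 0.0132 and differences from -1.57 to -1.69.

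Within a mouse, Npc1l1 in GUCY2Chi cells was 15.7%, 43.0%, 65.0%, 19.5% and 27.7% of its level in GUCY2Cmed cells (mice 2, 7, 12, 14 and 15), beside 7.05%, 7.23%, 42.7%, 7.20% and 40.3% for the summed enterocyte list. Both were highest in mouse 12, while mouse 15 was high for the list and mouse 7 for Npc1l1. All 14 enterocyte markers had negative differences, with a median of -2.36. Without the GUCY2Chi libraries of mice 12 and 15 Npc1l1 differed by -2.25 ± 0.36 (SE), with an edgeR adjusted p of 0.000694, and its adjusted p was at most 0.00879 over all fits that did not leave out a single library. The part of enterocytes among the sorted cells in this result was not tested.

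**Figure D2:**
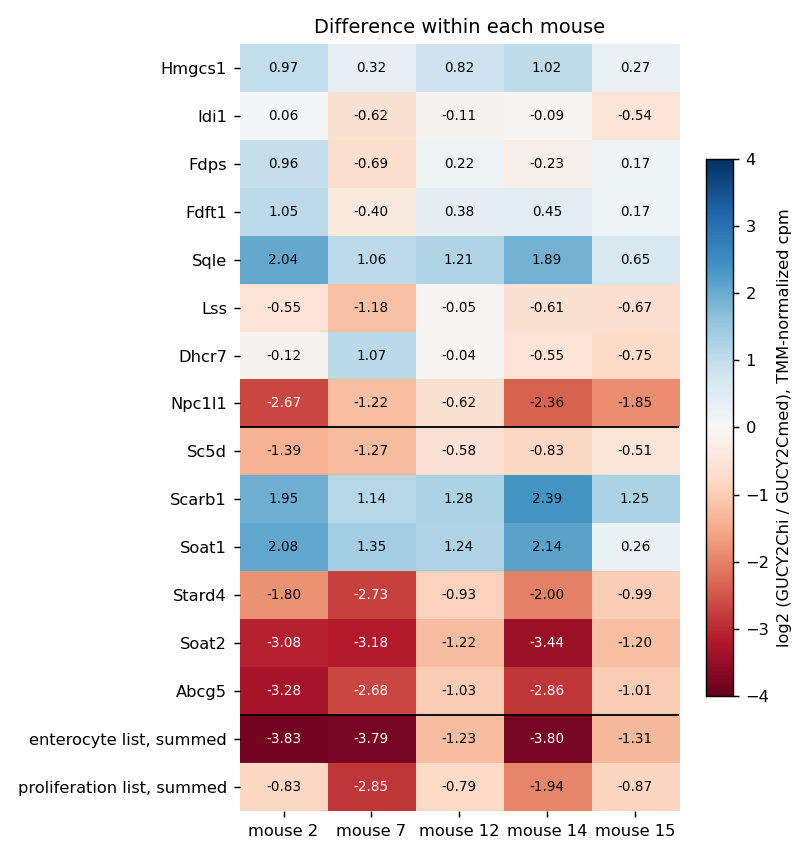
log2 ratio of TMM-normalized cpm, GUCY2Chi over GUCY2Cmed, within each of the 5 mice (columns) for the 8 genes, 6 other genes of sterol synthesis and transport past the threshold, and 2 summed marker lists (rows); blue is higher and red lower in GUCY2Chi cells. Sqle is positive in every mouse, from 0.65 in mouse 15 to 2.04 in mouse 2, and Npc1l1, Soat2 and Abcg5 are negative in every mouse, with Soat2, Abcg5 and the enterocyte list nearest to 0 in mice 12 and 15.

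The order of the genes by level was read from the deposited FPKM, which divide by gene length. In GUCY2Chi cells mean FPKM fell from Fdft1 at 60.7 ± 8.43 and Hmgcs1 at 59.9 ± 8.97 through Dhcr7 at 52.8 ± 23.0, Sqle at 44.0 ± 12.9, Idi1 at 24.6 ± 4.37 and Npc1l1 at 21.2 ± 8.49 to Lss at 3.73 ± 0.664 and Fdps at 1.88 ± 0.625 (SD, n = 5). In GUCY2Cmed cells it fell from Npc1l1 at 59.2 ± 22.4 through Dhcr7 at 48.1 ± 24.8, Fdft1 at 41.3 ± 13.7, Hmgcs1 at 30.9 ± 5.32, Idi1 at 24.5 ± 5.80 and Sqle at 13.9 ± 3.99 to Lss at 4.82 ± 1.61 and Fdps at 1.46 ± 0.486. Npc1l1 thus went from rank 1 of 8 in GUCY2Cmed to rank 6 in GUCY2Chi cells. Neighbours among the upper 6 overlapped in their FPKM over libraries in both groups, while Lss and Fdps each stood below the next gene without overlap. The lengths behind the FPKM were shorter than those in the table for 7 of the 8 genes, and with cpm per kilobase of table length Npc1l1 had rank 4 and Dhcr7 rank 5 in GUCY2Chi cells, with Npc1l1 still first in GUCY2Cmed cells.

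**Figure D3:**
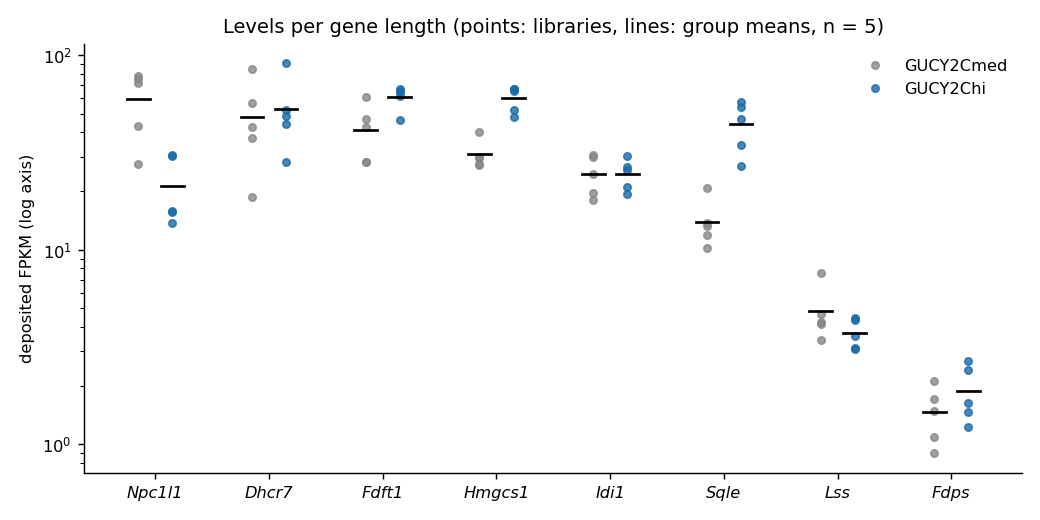
Deposited FPKM (log axis) of the 8 genes in each GUCY2Cmed (grey) and GUCY2Chi (blue) library, ordered by the mean in GUCY2Cmed cells, with black lines at the group means. Npc1l1 has the highest mean of the 8 genes in GUCY2Cmed cells, at 59.2, and Lss and Fdps are the lowest in both groups. FPKM lack the TMM factors, so the differences between groups are those tested on counts.

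The other enzymes of sterol synthesis were counted from a list of 13 genes, all of them tested. In GUCY2Chi cells 1 was higher, 1 was lower and 11 did not pass in edgeR, with a median log2 difference of -0.45. With limma-voom 1 was higher and 2 lower, and with DESeq2 1 was higher and 3 lower. Among all 15703 genes limma-voom called 2129 higher and 1797 lower, and DESeq2 2960 higher and 2235 lower. Over all genes tested edgeR called 13.9% higher and 8.79% lower. The lower gene in edgeR was Sc5d, which encodes the desaturase before Dhcr7, at 22.7 to 45.1 against 51.4 to 65.9 cpm. Its difference was -0.88, with an edgeR adjusted p of 0.00548. Sc5d passed in 2 of the 10 fits with 1 library left out, those without GUCY2Chi 15 or GUCY2Cmed 7, with adjusted p up to 0.0226 in the others, and with the replicate block its adjusted p was 0.0109 in edgeR and 0.00742 in limma-voom.

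**Figure D4:**
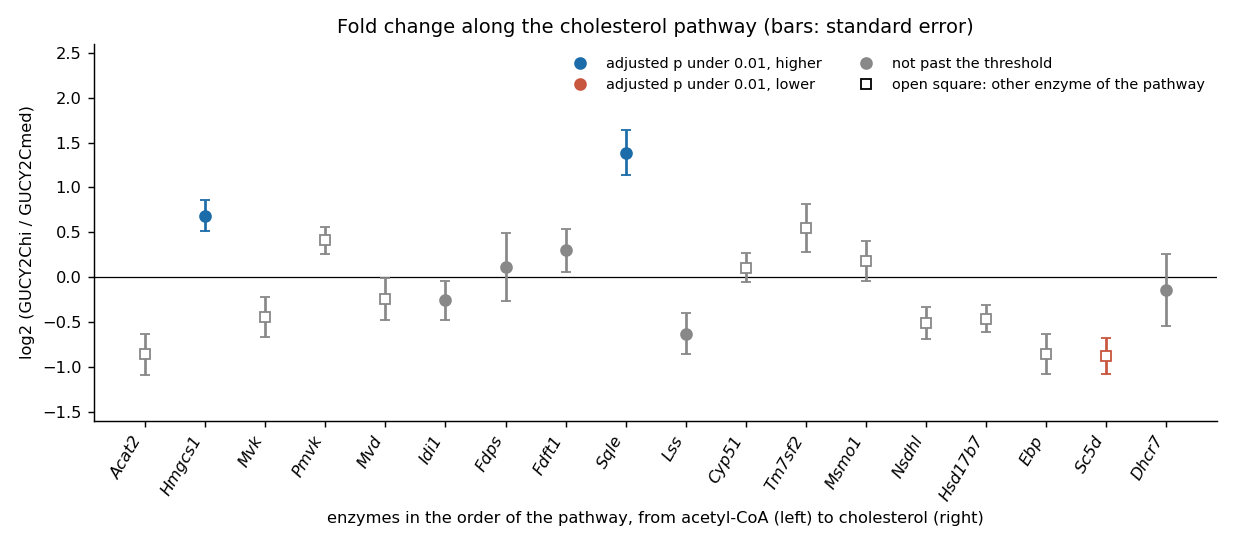
log2 fold change of GUCY2Chi over GUCY2Cmed (vertical axis, bars are the standard error) for the 7 synthesis genes (filled circles) and 11 of the 13 other enzymes (open squares), from acetyl-CoA on the left to cholesterol on the right. Hmgcs1 and Sqle stand above 0 in blue at 0.69 and 1.39, Sc5d is below 0 in orange at -0.88, and the grey genes did not pass the test.

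Of 8 genes that control SREBP and its targets, edgeR called 0 in either direction and limma-voom also called 0. DESeq2 called 2 higher, Scap and Mylip, where over all genes it called 2960 of 15703 higher. In edgeR 2 of the 8 genes that were higher and 2 that were lower had an unadjusted p under 0.05. The share of all genes at that unadjusted p was not counted, so this is no result about the list. Srebf2, the gene for SREBP-2, differed by 0.30 on the log2 scale with an edgeR adjusted p of 0.240, and Srebf1, which encodes the SREBP forms better known for fatty acid synthesis, had the lowest value of the list, -0.65, with an edgeR adjusted p of 0.0284. Scap, the sensor, differed by 0.72 (edgeR adjusted p = 0.0146), and Insig1 and Insig2, the anchors that retain it, by -0.63 (edgeR adjusted p = 0.153) and -0.50 (edgeR adjusted p = 0.0913). The highest value was that of Mylip, which encodes a ubiquitin ligase, at 1.72 with an edgeR adjusted p of 0.0120.

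Of 13 genes for sterol transport and storage, 2 were higher in GUCY2Chi cells, 3 were lower and 8 did not pass in edgeR. With limma-voom 2 were higher and 5 lower, and with DESeq2 3 were higher and 5 lower. Among all 15703 genes limma-voom called 2129 higher and 1797 lower, and DESeq2 2960 higher and 2235 lower. Over all genes tested edgeR called 13.9% higher and 8.79% lower. Scarb1, which encodes the HDL receptor SR-BI, had 92.4 to 261 cpm in GUCY2Chi and 38.0 to 58.3 cpm in GUCY2Cmed libraries, a difference of 1.69 with an edgeR adjusted p of 0.000980, and passed in every fit. The acyltransferases that esterify cholesterol went in opposite directions. Soat1, the form found in most tissues, differed by 1.41 (edgeR adjusted p = 0.00139, 0.0127 with the replicate block, and 1.37e-06 to 0.0127 over the 11 fits with other tools, scaling, filters or mice), with 22.3 to 47.6 against 9.08 to 18.7 cpm. Soat2, the form of enterocytes and hepatocytes, differed by -2.11 (edgeR adjusted p = 0.00427), with 23.7 to 126 against 204 to 291 cpm. The groups did not overlap for either gene.

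Stard4, which encodes a carrier of cholesterol in the cytosol, was lower by a log2 difference of -1.55 (edgeR adjusted p = 0.00223) and passed in every fit. Abcg5, which encodes a subunit of the transporter that returns sterols to the lumen, was lower at -1.91 (edgeR adjusted p = 0.00953), and its partner Abcg8, at the low end of the list with -2.28, did not pass (edgeR adjusted p = 0.0156). With 1 library left out, in 10 fits, Soat2 passed in 4, those without GUCY2Chi 12, 14 or 15 or GUCY2Cmed 7, and Abcg5 in 1, the fit without GUCY2Chi 15, with adjusted p up to 0.0167 and 0.0346. Without the GUCY2Chi libraries of mice 12 and 15 the differences were -3.17 for Soat2 and -2.94 for Abcg5. Abcg1, which encodes a cholesterol exporter, had the highest value of the list, 1.97, at 4.91 against 1.25 cpm (edgeR adjusted p = 0.0387).

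Across the 10 libraries, log2 cpm centred within each group described how the 8 genes varied together; the points share 5 mice and their depth, and r is given as a description. Sqle and Hmgcs1 varied alike (r = 0.91), as did Idi1 and Fdft1 (r = 0.89). Against the mean of the other 6 synthesis genes, r was 0.90 for Idi1, 0.84 for Fdft1, 0.67 for Fdps and between 0.42 and 0.45 for Hmgcs1, Sqle and Lss, but -0.13 for Dhcr7. Npc1l1 had r = -0.26 with the mean of the 7 synthesis genes and r = -0.72 with Sqle. Among 9977 genes with at least 5 cpm on average, the 10 outside the lipid lists whose pattern was most like that mean had r from 0.89 to 0.95 and included Gca, Krt19, Ufsp1, Mydgf, Mfng, Cela1, Ybx3, Abracl and Tmem192. Because they were picked as the highest r among so many genes over 10 libraries, these values are no result about the named genes. Of the sterol synthesis list, Cyp51, the lanosterol demethylase, had rank 9 with r = 0.90 and Mvd, mevalonate diphosphate decarboxylase, had r = 0.89.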

How the data were processed

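RNA of GUCY2Chi and GUCY2Cmed cells of the small intestine was measured in 10 libraries, 5 per group, grouped by the sample labels, which call the GUCY2Cmed libraries both Medium and Lo. Library preparation, STAR alignment and read counting were done by a sequencing provider for the authors. The deposited counts are raw reads per gene. The deposited FPKM divide them by gene length and by the reads on genes, and were used for levels between genes only. The authors' own comparison, made with limma 3.40.6 and edgeR 3.26.8 per the submitters' processing notes, holds log2 fold changes, p-values and a test score and was not used. The labels name mm9, but all 8 genes lie within 5000 bases of their GRCm38 RefSeq starts, so positions are given on GRCm38.

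The fits used edgeR 4.0.16 and, as alternatives, DESeq2 1.42.0 and limma 3.58.1 under R 4.3.3. Sequences, tables and plots were made with numpy 2.4.6, matplotlib 3.10.9 and pandas 2.3.3 under Python 3.11.15. Genes above 0.5 cpm in at least 3 libraries were kept, 15703 of 54532. The quasi-likelihood test of edgeR with TMM factors compared the groups. The model had no mouse term, and p was adjusted over all genes tested (Benjamini-Hochberg, threshold 0.01). The biological coefficient of variation was 0.458. The test scripts were tested on simulated data. Libraries of the 2 groups that share a number were taken as paired by mouse, since 5 mice were sorted into both groups. Their deviations from the group means had r of -0.11, -0.223, 0.272, -0.124 and 0.0607 in mice 2, 7, 12, 14 and 15. The highest r with a library of another number was 0.542, 0.287, 0.0896, 0.432 and 0.397. Only in mouse 12 was the same number the closer match, so these correlations do not bear out the pairing. Values given within a mouse rest on it. Counting error is smallest for the abundant genes and matters most for Fdps, with 14 to 42 reads per library.

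The 8 genes, the gene lists, the markers and the motifs were chosen by function with earlier results of these data known. Besides the 8 genes, those named are the genes past the threshold and at the ends of the range of each lipid list, Srebf1, Srebf2, Scap, Insig1 and Insig2, the most abundant markers, and the 10 genes most like the synthesis genes in pattern, of which 1 is left out. Results for some genes of the lists are not reported here. Lipa, Mvd, Cyp51, Abcg8, Anpep and Vil1, and the genes that overlap Fdps and Fdft1, were chosen after their values were seen. Alternatives were limma-voom, DESeq2, the replicate block, other scaling, other filters, leaving out each library, and leaving out the libraries of mice 12 and 15.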

Additional observations from a re-analysis of the deposited data

Results flagged for a closer look

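Among 16 groups of 5 libraries, the 8 genes in both populations, 3 held a library whose distance to its nearest neighbour was more than 0.710 of the range of the group, Dixon's 95% critical value; chance gives about 1 in 20. Hmgcs1 in GUCY2Cmed 7 was at 93.9 cpm, with the other GUCY2Cmed libraries between 66.1 and 73.7 cpm. Lss in the same library was at 22.4 cpm, with the others between 11.6 and 13.3 cpm. The same library had the highest Sqle and Fdft1 and the lowest Npc1l1 and Dhcr7 of its group, and the highest summed proliferation markers, 948 cpm against 410 to 637 cpm. Without it the log2 difference was 0.78 for Hmgcs1, -0.43 for Lss and -1.95 for Npc1l1.

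Dhcr7 in GUCY2Chi 12 was at 118 cpm, with the other GUCY2Chi libraries between 36.7 and 53.7 cpm. The GUCY2Cmed library of the same mouse was also the highest of its group, at 121 cpm, but the distance to its neighbour did not pass the critical value. Without GUCY2Chi 12 the log2 difference of Dhcr7 was -0.50.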

How the results depend on the processing

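The directions of Sqle, Hmgcs1, Npc1l1, Lss and Fdft1 held in each of the 21 alternatives, and Sqle kept its call in all of them. Of the 8 genes, 1 instead of 2 was called higher with the replicate block in either tool (edgeR 1, limma-voom 1), with no filter and without both libraries of mice 12 and 15, and 1 to 2 when single libraries were left out; the gene lost was Hmgcs1. Called lower were 0 to 1 when single libraries were left out. Of the 13 other synthesis genes, 2 were called higher with library sizes only, and called lower were 2 with limma-voom, 3 with DESeq2, 0 with the replicate block in edgeR, 2 with it in limma-voom, 0 with library sizes only, 0 with at least 10 counts in every library, 3 without the GUCY2Chi libraries of mice 12 and 15, and 0 to 2 when single libraries were left out. Over all genes the replicate block in edgeR gave 1294 higher and 779 lower, and lower genes numbered 2235 with DESeq2, 557 with library sizes only and 2186 without the GUCY2Chi libraries of mice 12 and 15; leaving out single libraries gave 1636 to 2534 higher and 512 to 1609 lower. Values of genes not called turned sign for Idi1 with library sizes only (0.0051), for Dhcr7 with library sizes only (0.13), without both libraries of mice 12 and 15 (0.072) and without single libraries (-0.50 to 0.22), and for Fdps without single libraries (-0.095 to 0.32). Library sizes only moved the median of all genes from 0.094 to 0.39, a shift that the differences under that scaling share. The cause of these changes was not tested. Apart from Hmgcs1, Sc5d, Soat1, Acss2, Elovl6, Pdss1, Pdss2 and Lipa, and Abcg8 with limma-voom, the paired fit changed no call among the 8 genes and the genes named from the lipid lists; other named genes were not compared with it here. Fdps rests on 14 to 42 reads per library, and every difference on 5 libraries per group.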

Other observations

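Lipid pathways that branch from the same precursors were counted from lists of the same kind. Of 10 genes for fatty acid synthesis, 1 was higher in GUCY2Chi cells, 3 were lower and 6 did not pass the test in edgeR. With limma-voom 2 were higher and 3 lower, and with DESeq2 3 were higher and 3 lower. Among all 15703 genes limma-voom called 2129 higher and 1797 lower, and DESeq2 2960 higher and 2235 lower. Over all genes tested edgeR called 13.9% higher and 8.79% lower. Acly, whose product makes cytosolic acetyl-CoA from citrate, had 42.1 to 115 cpm in GUCY2Chi and 19.7 to 26.9 cpm in GUCY2Cmed libraries, a log2 difference of 1.81 with an edgeR adjusted p of 0.000283, and passed in every fit. Me1, the cytosolic malic enzyme, which yields NADPH, was lower at -1.71 (edgeR adjusted p = 0.000464) and also passed in every fit. Elovl6, a fatty acid elongase, was lower at -1.07 (edgeR adjusted p = 0.00295), and Acss2, which makes acetyl-CoA from acetate, at -0.97 (edgeR adjusted p = 0.00806). With the replicate block in edgeR their adjusted p was 0.0151 and 0.0210, and over the 11 fits with other tools, scaling, filters or mice it ran up to 0.0226 and 0.0234. With 1 library left out, in 10 fits, Elovl6 passed in 8, all but those without GUCY2Chi 2 or 7, and Acss2 in 2, those without GUCY2Chi 12 or 15.

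Of 8 genes for other isoprenoid products, edgeR, limma-voom and DESeq2 each called 0 higher and 2 lower. Among all 15703 genes limma-voom called 2129 higher and 1797 lower, and DESeq2 2960 higher and 2235 lower. Over all genes tested edgeR called 13.9% higher and 8.79% lower. In edgeR 1 gene of the list in the higher direction and 3 in the lower had an unadjusted p under 0.05. The share of all genes at that unadjusted p was not counted, so this is no result about the list. Pdss1 and Pdss2 encode the subunits of the enzyme that builds the side chain of coenzyme Q from farnesyl diphosphate. Pdss1 had 12.2 to 37.3 cpm in GUCY2Chi and 56.1 to 110 cpm in GUCY2Cmed libraries, a log2 difference of -1.75 with an edgeR adjusted p of 0.00214. Pdss2 had 8.63 to 17.0 against 23.8 to 38.9 cpm, a log2 difference of -1.35 with an edgeR adjusted p of 0.00149. The groups did not overlap for either gene. Their edgeR adjusted p with the replicate block was 0.0108 and 0.01002, the highest over those 11 fits, and both passed whichever library was left out. Lipa, a lysosomal acid lipase that frees cholesterol from its esters, differed by -1.80 and did not pass (edgeR adjusted p = 0.0217), but passed with the replicate block (edgeR adjusted p = 0.00756, with 7.72e-05 to 0.0476 over those 11 fits).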
